A study of Mus musculus with 3 samples.

Results

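Amino acid transporters of the plasma membrane were followed across CD8+ T cells by 8 listed genes: Slc7a5, Slc3a2, Slc1a5, Slc1a4, Slc38a1, Slc38a2, Slc7a1 and Slc7a6. They are 8 of the 25638 genes in the count table, and all 8 had counts in every library. The cells came from mouse spleen, with genotype WT and no treatment in all groups, and were sorted as effector memory (antigen-experienced cells that can act at once), central memory (antigen-experienced cells that recirculate through lymphoid organs) or naive (not yet exposed to antigen). Each of the 3 groups has 1 library, so no difference below has a replicate check and no test between groups was possible. Strain, age, the number of animals behind a library and the sorting markers are not stated in the labels used here.

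T cells import most amino acids through carrier proteins, and the supply limits protein synthesis and the activity of the growth kinase mTORC1. SLC7A5 (LAT1) exchanges large neutral amino acids such as leucine across the membrane and reaches it only as a pair with SLC3A2, the heavy chain of CD98. SLC1A5 (ASCT2), SLC38A1 (SNAT1) and SLC38A2 (SNAT2) carry glutamine and small neutral amino acids with sodium, SLC1A4 (ASCT1) carries serine, alanine and cysteine, SLC7A1 (CAT1) takes up arginine and lysine, and SLC7A6 (y+LAT2), another partner of SLC3A2, exchanges cationic for neutral amino acids.

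The libraries held 33087462 counts for effector memory, 35846315 for central memory and 26876909 for naive. Levels are CPM, read counts scaled to an effective library size, and intervals are 95% exact intervals that cover counting error only. The pan-T-cell gene Cd3e stood at 335, 418 and 395 CPM in effector memory, central memory and naive. Cd8a stood at 408, 1063 and 1868 CPM and the memory marker Cd44 at 113, 45.8 and 2.95 CPM, in that order. The proliferation gene Mki67 stood at 1819, 301 and 2.62 CPM. Receptor segment Trbv12-1 took 98.4% of Trbv counts in effector memory and 99.6% in central memory, against 7.13% in naive, so memory and naive libraries also differ in receptor use. Nearly all Trbv counts of the memory libraries thus came from this segment. The part of this difference in the transporter values was not tested. Summed over marker lists, in the same order, 6 B cell markers gave 2.81, 6.28 and 31.2 CPM, 5 NK cell markers 3.94, 63.3 and 0.288 CPM, 8 myeloid markers 25.4, 8.04 and 7.73 CPM, and 5 dendritic cell markers 21.6, 117 and 2.44 CPM, of which Itgax made up nearly all in central memory. In the same order, 4, 2 and 0 of the 6 B cell markers were at 0 counts, and 3, 0 and 3 of the 5 NK cell markers. So were 4, 3 and 2 of the 8 myeloid markers, and 3, 3 and 2 of the 5 dendritic cell markers. The NK marker Ncr1 was at 0 in effector memory and naive and at 12.2 CPM in central memory. The myeloid marker Cd68 gave 21.1 CPM in effector memory, most of that sum. The part of such cells in the transporter values was not tested.

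Slc7a5 and Slc1a4 stood apart in the effector memory library, and the other 6 transporters differed by less than 2-fold in each comparison. Slc7a5 was 2.98-fold higher in effector memory than in naive, and Slc1a4 was 8.74-fold higher. A call rests on size alone and needed at least 5 CPM in the higher library, at least a 2-fold difference and a counting interval that excludes a ratio of 1. For effector memory against naive, 2 of the 8 transporters were called higher, where 22.3% of the 10087 genes at 5 CPM were called higher, and none was called lower, where 15.6% were (37.9% in either direction). For central memory against naive, none of the 8 was called higher (11.2% of 9737 genes) or lower (5.12%), with 16.3% in either direction. Slc1a4 could not be called there, since it was under 5 CPM in both libraries. For effector memory against central memory, 2 of 8 were called higher (14.8% of 9975 genes) and none lower (12.8%), with 27.6% in either direction. Counts of called transporters were thus near the share of all genes, and the results lie in which members differed. In bulk RNA, more cells carrying a transcript and more transcript per cell cannot be told apart.

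**Figure D1:**
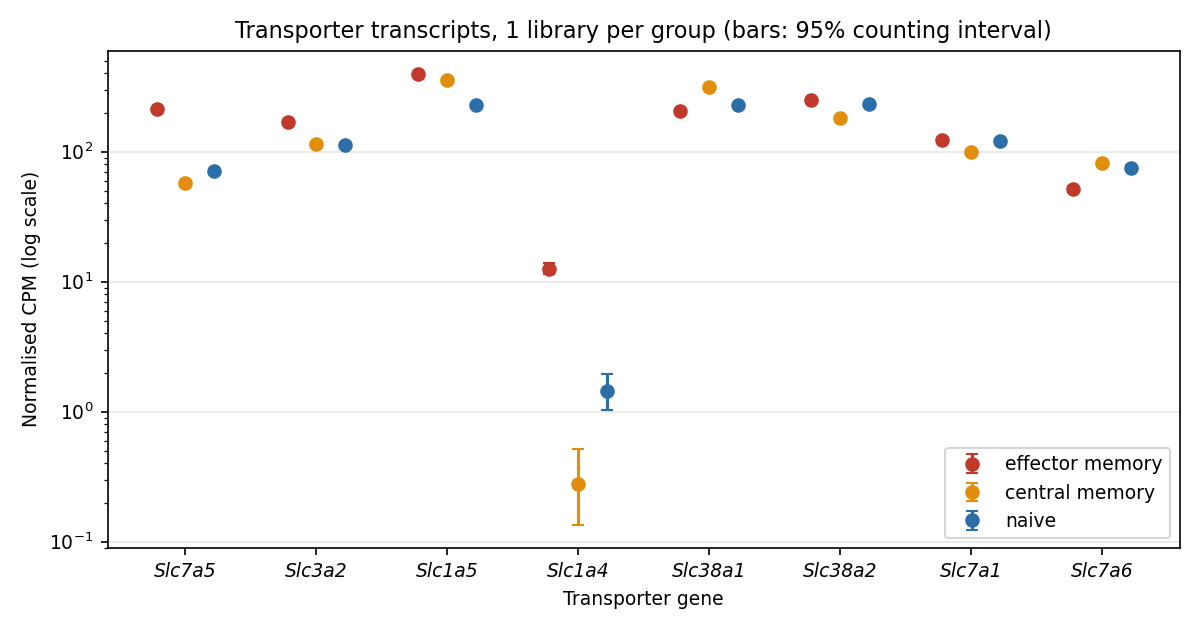
Normalised CPM (log scale) of the 8 transporter genes in the effector memory, central memory and naive libraries. Points are single libraries and bars are 95% counting intervals, often smaller than the point. Slc1a4 lies between 0.279 and 12.6 CPM, far under the other genes, and Slc7a5 reaches 211 CPM in effector memory only.

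Slc7a5, the light chain that carries leucine (ENSMUSG00000040010.10, chromosome 8, 121881150 to 121907694, minus strand of GRCm38), had 6761 counts or 211 CPM in effector memory, 2066 counts or 57.7 CPM in central memory and 1971 counts or 70.8 CPM in naive. Effector memory was the high library, and the counting intervals of the libraries did not overlap. The ratio was 2.98 for effector memory over naive (interval 2.84 to 3.14) and 3.67 for effector memory over central memory (interval 3.49 to 3.85). Central memory over naive gave 0.814 (interval 0.765 to 0.866), short of the 2-fold limit. The log2 ratio of effector memory over naive, 1.58, was above that of 85.6% of the genes at 5 CPM, and against central memory, at 1.87, above that of 93.1%. All 6 genes of a cell division list were called higher in effector memory than in naive, where 22.3% of all genes were. All 6 were also called higher in central memory than in naive (11.2% of all genes) and in effector memory than in central memory (14.8%). Mki67 was 694-fold its naive level in effector memory and 115-fold in central memory. The part of cell division in the Slc7a5 values was not tested.

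Slc3a2, the heavy chain that brings SLC7A5 and SLC7A6 to the surface (ENSMUSG00000010095.13, chromosome 19, 8706882 to 8723369, minus strand), had 168 CPM in effector memory, 116 in central memory and 112 in naive. Effector memory was again highest, with a log2 ratio of 0.59 to naive and a 1.46-fold higher level than central memory (interval 1.40 to 1.52), which the 2-fold limit leaves uncalled. Central memory and naive could not be told apart by counting error, with a ratio of 1.03 (interval 0.984 to 1.08).

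Levels of different genes were compared per kilobase of annotated exon. On this scale Slc7a5 stood at 57.0, 15.6 and 19.1 CPM per kilobase in effector memory, central memory and naive, and Slc3a2 at 47.7, 32.8 and 31.8. The quotient of Slc7a5 over Slc3a2 was 1.19 in effector memory (interval 1.15 to 1.24), 0.475 in central memory (interval 0.450 to 0.501) and 0.601 in naive (interval 0.568 to 0.636). With the longest transcript as the length, the quotients were 1.004, 0.399 and 0.505. The light chain transcript therefore stood at or above its heavy chain only in the effector memory library, under either length.

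Slc7a6, the other SLC3A2 partner among the members (ENSMUSG00000031904.5, chromosome 8, 106168857 to 106198706, plus strand), had 51.6 CPM in effector memory, 81.8 in central memory and 75.5 in naive. Here effector memory was the low library, at a ratio of 0.683 to naive (interval 0.640 to 0.728) and 0.630 to central memory (interval 0.593 to 0.670). Per kilobase, Slc7a6 over Slc7a5 was 0.198 in effector memory, 1.15 in central memory and 0.865 in naive. The light chains Slc7a5 and Slc7a6 thus lay on opposite sides of naive in effector memory, though only Slc7a5 passed the rule.

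**Figure D2:**
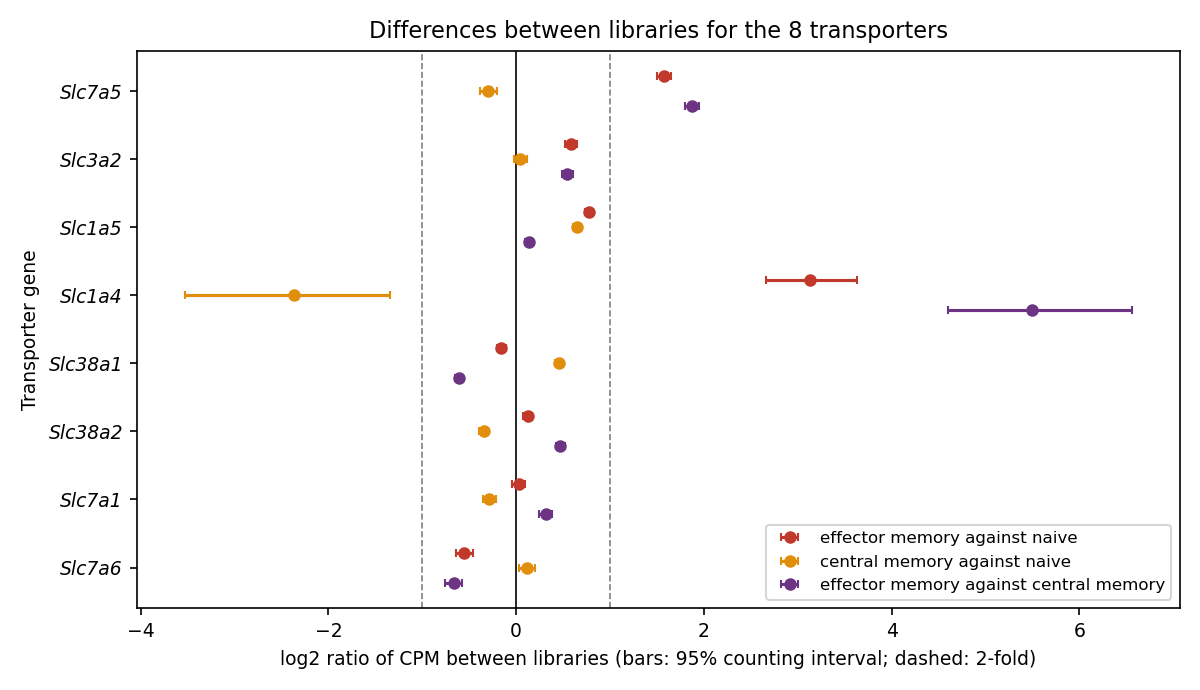
Log2 ratio of CPM between libraries for each transporter, for each memory group against naive and for effector memory against central memory. Bars are 95% counting intervals and dashed lines mark 2-fold. Slc7a5 and Slc1a4 lie to the right of the 2-fold line in both comparisons of effector memory, and Slc1a4 lies to the left for central memory against naive, where it was under 5 CPM.

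Slc1a4, a carrier of serine, alanine and cysteine (ENSMUSG00000020142.12, chromosome 11, 20302180 to 20332713, minus strand), was the lowest member in every library. It had 402 counts or 12.6 CPM in effector memory, 10 counts or 0.279 CPM in central memory and 40 counts or 1.44 CPM in naive. Effector memory was high, and central memory was the lowest. The ratio of effector memory over naive was 8.74 (interval 6.31 to 12.4) and that over central memory was 45.0 (interval 24.2 to 94.6), so the few counts leave wide bounds. Slc1a4 reached 5 CPM through effector memory alone, so it could be called only where that library was compared. Central memory over naive was 0.194 (interval 0.0866 to 0.395), a difference between counts of 10 and 40. With 1 added to each CPM, the log2 ratios of Slc1a4 were 2.48 for effector memory against naive, -0.93 for central memory against naive and 3.41 for effector memory against central memory, beside 3.13, -2.36 and 5.49 without it.

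The promoter window of Slc1a4 is printed because this gene had the largest ratio of the 8, and that of Slc3a2 because it is the partner chain of Slc7a5 and had a smaller difference. Windows are RefSeq sequences of GRCm38.p6, from 250 bases before to 50 after a transcript start. RefSeq windows were at hand for 5 of the 8 members, and not for Slc7a5, Slc1a5 and Slc38a1. Capitals mark a match, on either strand, to TGATGNAA, the composite element bound by ATF4 with C/EBP factors, which switch on amino acid supply genes under shortage. The windows are chr11:20332664-20332963 and chr19:8713848-8714147, both on the minus strand. The Slc3a2 window lies inside the annotated gene, which begins at 8723369 on that strand, and no other start of Slc3a2 was searched.
Slc1a4: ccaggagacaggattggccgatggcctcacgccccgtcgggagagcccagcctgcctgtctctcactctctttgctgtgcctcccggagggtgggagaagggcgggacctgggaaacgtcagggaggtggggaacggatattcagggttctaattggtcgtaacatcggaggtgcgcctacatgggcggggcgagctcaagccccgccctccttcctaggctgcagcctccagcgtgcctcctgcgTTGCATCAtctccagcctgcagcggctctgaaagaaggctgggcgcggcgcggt
Slc3a2: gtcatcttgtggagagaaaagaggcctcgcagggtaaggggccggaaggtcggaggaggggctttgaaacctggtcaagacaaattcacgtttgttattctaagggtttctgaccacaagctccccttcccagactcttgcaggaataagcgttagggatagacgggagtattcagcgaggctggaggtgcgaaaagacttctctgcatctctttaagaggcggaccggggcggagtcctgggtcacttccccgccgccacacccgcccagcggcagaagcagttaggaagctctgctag

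In Slc1a4 the letters TTGCATCA, which match the motif on the opposite strand, fill bases 247 to 254 of the window and so span the transcript start. Of 32851 promoter windows of this length in the table, 3.97% held TGATGNAA on either strand. None of the windows of the other 4 members, Slc3a2, Slc38a2, Slc7a1 and Slc7a6, held these letters. The E-box CACGTG, bound by MYC and MAX, was in none of the 5 members' windows and in 7.15% of all windows. A match is a description of letters and not a bound site.

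Slc1a5, the exchanger of glutamine for other small neutral amino acids (ENSMUSG00000001918.17, chromosome 7, 16781340 to 16798274, plus strand), had 394 CPM in effector memory, 359 in central memory and 230 in naive. Both memory libraries were above naive, by 1.71-fold in effector memory (interval 1.66 to 1.77) and 1.56-fold in central memory (interval 1.52 to 1.61), and neither ratio reached 2. Effector memory over central memory was 1.10 (interval 1.07 to 1.12). Slc1a5 was the only member with ratios over 1.5 to naive in both memory libraries. Per kilobase it was the highest of the 8 in all libraries, at 94.3 in effector memory, 86.0 in central memory and 55.0 in naive. Its close relative Slc1a4 stood at 3.20, 0.0711 and 0.366 CPM per kilobase, so Slc1a5 exceeded it 29.5-fold in effector memory (interval 26.7 to 32.6) and 150-fold in naive (interval 110.2 to 211).

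Slc38a1, a sodium-coupled carrier of glutamine and alanine (ENSMUSG00000023169.15, chromosome 15, 96571418 to 96642913, minus strand), had 205 CPM in effector memory, 314 in central memory and 229 in naive. Central memory was the high library, at 1.37-fold over naive (interval 1.33 to 1.41), and effector memory stood at 0.654 of central memory (interval 0.635 to 0.675). Effector memory over naive was 0.896 (interval 0.866 to 0.928).

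Slc38a2, the related carrier whose gene lies in the same stretch of chromosome 15 (ENSMUSG00000022462.7, 96687392 to 96699730, minus strand), had 252 CPM in effector memory, 182 in central memory and 231 in naive. Central memory was the low library here, with a ratio of 0.786 to naive (interval 0.759 to 0.814), and effector memory over central memory was 1.38 (interval 1.34 to 1.43). Effector memory over naive was 1.09 (interval 1.05 to 1.12). Slc38a1 over Slc38a2 per kilobase was 0.418 in effector memory, 0.885 in central memory and 0.508 in naive. With the longest transcript the quotients were 0.687, 1.45 and 0.834, so the quotient was highest in central memory under either length, while which gene stood higher there depends on the length.

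Slc7a1, the main uptake route for arginine and lysine in many cells (ENSMUSG00000041313.14, chromosome 5, 148327410 to 148399904, minus strand), had 123 CPM in effector memory, 99.1 in central memory and 121 in naive. Effector memory and naive could not be told apart by counting error, at a ratio of 1.02 (interval 0.973 to 1.07). Central memory was slightly below both, at 0.820 of naive (interval 0.782 to 0.860).

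**Figure D3:**
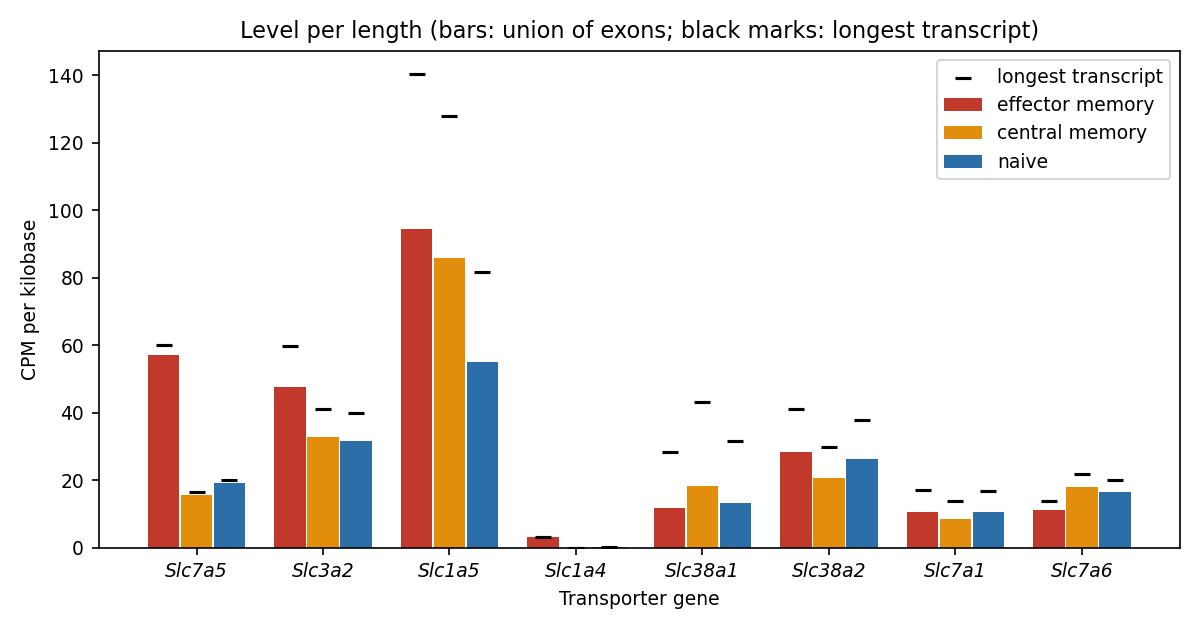
CPM per kilobase of the 8 transporters in effector memory, central memory and naive. Bars use the union of annotated exons as gene length and black marks the longest transcript. Slc1a5 is highest in every library, and Slc7a5 is in the second place in effector memory, at 57.0 CPM per kilobase, but not in the others.

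In effector memory the order per kilobase was Slc1a5, Slc7a5, Slc3a2, Slc38a2, Slc38a1, Slc7a6, Slc7a1 and Slc1a4. Slc38a1, Slc7a6 and Slc7a1 were close, at 11.9, 11.3 and 10.7 CPM per kilobase, and the order of Slc7a6 and Slc7a1 turned round with the longest transcript as the length. Slc7a5 stood in place 6 in central memory, and in place 4 in naive (6 with the longest transcript). Of the summed level of all 8 members per kilobase, Slc7a5 made up 21.5% in effector memory, 7.79% in central memory and 11.1% in naive. Slc1a5 made up 35.6%, 43.1% and 31.9% in the same order. The sum itself was 265 CPM per kilobase in effector memory, 200 in central memory and 173 in naive.

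The median log2 ratio of all 8 members was 0.35 for effector memory against naive, beside 0.06 over all 10087 genes at 5 CPM. For central memory against naive it was 0.04 over the 7 members at 5 CPM, beside 0.14 over 9737 genes, and -0.12 with Slc1a4 included. It was 0.39 for effector memory against central memory, beside -0.06 over 9975 genes. In effector memory against naive, 6 members had ratios above 1 and 2 below, and Slc7a1 moved below 1 under each other scaling of the libraries. These comparisons share libraries and are given side by side.

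**Figure D4:**
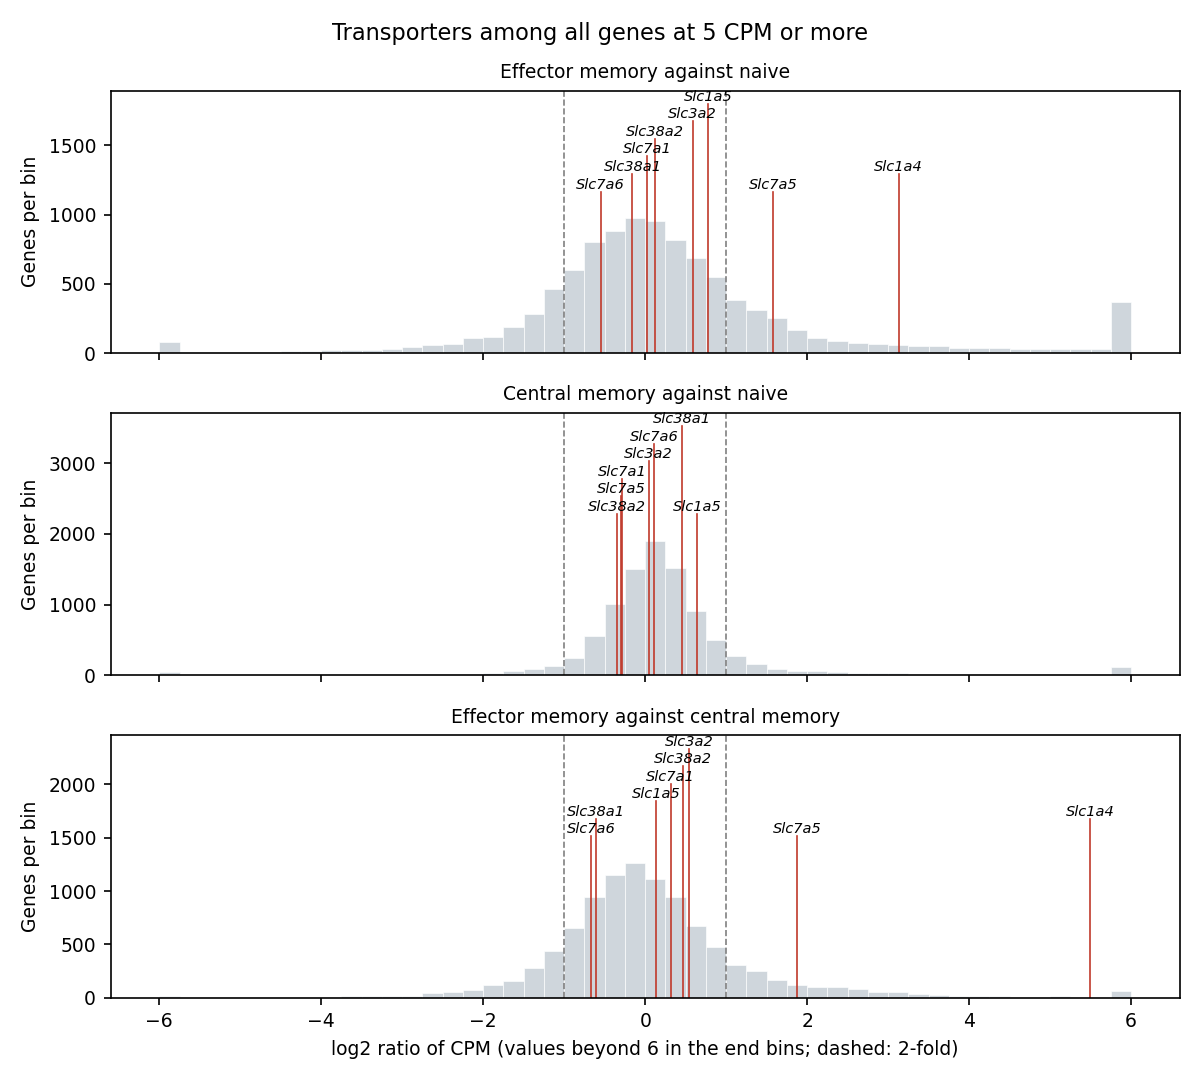
Distribution of the log2 ratio of CPM over all genes at 5 CPM or more in each comparison, in bins of width 0.25 whose end bins hold all values beyond 6 in size, with the transporters at 5 CPM marked by lines. Most transporters fall in the central part of the distribution; in effector memory against naive Slc7a5 lies at 1.58 and Slc1a4 at 3.13.

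The members also differed in which genes had the most similar pattern. Likeness was the Euclidean distance between the log2 ratios of effector memory and central memory to naive, among 7891 genes that reached 20 CPM in at least 1 of the 3 libraries. For Slc7a5 the nearest were Slc27a1 (distance 0.09), Ube2e3 (0.09) and Odf2l (0.11). Its partner Slc3a2 was at a distance of 1.05, with 12.6% of the genes nearer to Slc7a5. Among the nearest of Slc3a2 were Elk3 and Snrpg, both at 0.02. For Slc1a4 the nearest were B4galnt4 (0.37), H2-Ab1 (0.71) and Neb (0.75). Slc1a4 itself was under 20 CPM in every library, so genes as low as it were not compared. How many genes resemble it cannot be read from these distances, and its place rests on 10 counts in central memory and 40 in naive. Slc38a2 and Slc7a1 were the closest pair of members, at a distance of 0.11.

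Of 40 other transporters of amino acids or related compounds at the plasma membrane, 21 had a count in effector memory or naive and 7 reached 5 CPM there, with 1 called higher, 2 lower and 4 neither, where 22.3% of all genes were called higher and 15.6% lower. Slc7a3 (CAT3), a cationic amino acid carrier related to Slc7a1, had 9.51 CPM in effector memory, 0.251 in central memory and 0.719 in naive, and was 13.2-fold higher in effector memory than in naive (interval 8.41 to 22.0). Like Slc1a4, it reached 5 CPM through effector memory alone, so its being highest there follows from that limit. It was lowest in central memory, on 9 counts there against 20 in naive.

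Slc6a19 (B0AT1), a sodium-coupled neutral amino acid carrier known from gut and kidney, had 2.63 CPM in effector memory, 14.1 in central memory and 71.0 in naive. Its ratio to naive was 0.0370 in effector memory (interval 0.0294 to 0.0460) and 0.198 in central memory (interval 0.179 to 0.219). Slc43a2 (LAT4), which carries branched-chain amino acids and phenylalanine, had 40.4 CPM in effector memory, 158 in central memory and 99.1 in naive, and was called lower in effector memory against both others, at ratios of 0.408 to naive and 0.256 to central memory. Slc43a1 (LAT3), of the same family, had 1.56, 6.84 and 0.395 CPM in that order of libraries and was called higher in central memory than in naive, at 17.3-fold (interval 9.50 to 35.1). Slc43a1 reached 5 CPM through central memory alone, so its being highest there follows from that limit, and it had 11 counts in naive. The large neutral amino acid carriers Slc7a5 and Slc43a2 therefore did not share an order: Slc7a5 was highest in effector memory, and Slc43a2 in central memory.

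Genes that use or sense amino acids gave a context for these values. Of 13 genes of the amino acid shortage response through GCN2 and ATF4, 11 were at 5 CPM for effector memory against naive, with 7 called higher and none lower, where 22.3% of all genes were called higher and 15.6% lower, and a median log2 ratio of 1.65. Asparagine synthetase Asns had 111 CPM in effector memory, 14.8 in central memory and 0.431 in naive, 257-fold higher in effector memory than in naive (interval 147 to 499). Stc2, which encodes a secreted glycoprotein, had 50.2, 7.59 and 0.719 CPM in that order. Trib3, an ATF4 target that feeds back on it, had 50.03, 23.9 and 1.55 CPM. Eif4ebp1, a brake on translation controlled by mTORC1, had 85.2, 18.4 and 4.35 CPM. For central memory against naive 4 of 10 were called higher and 1 lower, where 11.2% and 5.12% of all genes were. The lower one was Atf4 itself, named after its values were seen, at 0.467 of naive (interval 0.447 to 0.487).

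Of 20 cytosolic aminoacyl-tRNA synthetases, which load amino acids on tRNA, 5 were called higher in effector memory than in naive, none lower and 15 neither, with a median log2 ratio of 0.83. The share called higher was near the 22.3% of all genes, so the count of calls is no result about the synthetases. By direction, 19 of the 20 had ratios above 1, beside 52.1% of all genes. For effector memory against central memory, 7 of the 20 were called higher and none lower, where 14.8% and 12.8% of all genes were. In effector memory against naive, the largest ratios were those of Gars, 2.82-fold (interval 2.70 to 2.94), and Aars, 2.63-fold (interval 2.50 to 2.76). None of the 20 was called in central memory against naive, with a median log2 ratio of -0.03. Of 14 genes of glutamine use, 3 were called higher in effector memory than in naive and none lower, again near the share of all genes: the glutaminase Gls2, with 562 counts in effector memory, 14 in central memory and 0 in naive, the alanine aminotransferase Gpt2, 16.7-fold, and the aspartate aminotransferase Got2, 3.31-fold. Gls2 and Gpt2 reached 5 CPM through effector memory alone, so their being highest there follows from that limit.

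**Figure D5:**
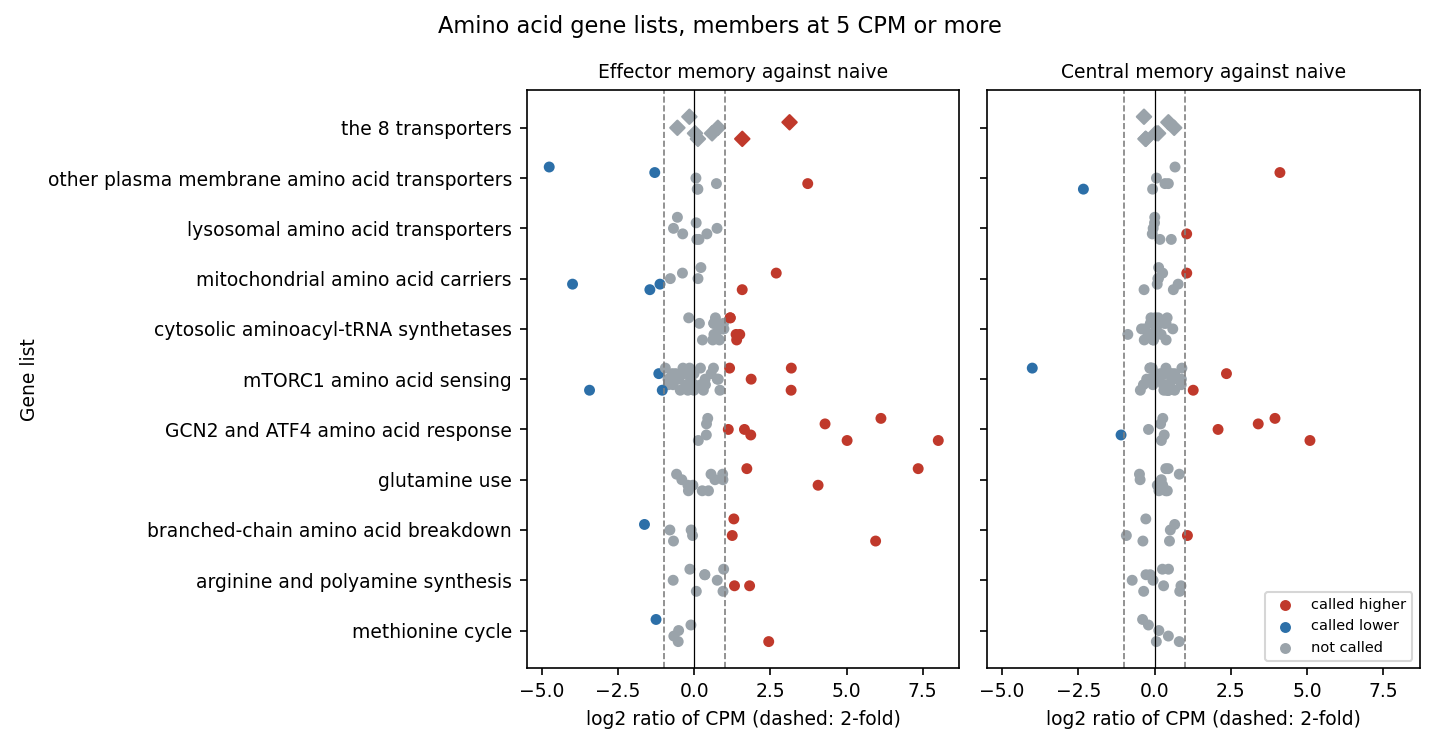
Log2 ratio of CPM for the 8 transporters (diamonds) and for other amino acid gene lists (circles), for effector memory against naive and central memory against naive. Only genes at 5 CPM or more in either library are shown, dashed lines mark 2-fold, and colours mark genes called higher, called lower or not called. The shortage response list reaches furthest to the right, with Asns at 8.01 in effector memory. Gls2, at 0 in naive, is drawn at its ratio to 3 counts.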

How the data were processed

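The authors deposited 1 table of whole-number read counts per gene symbol, whose columns TEM, TCM and TN were taken to abbreviate effector memory, central memory and naive. HISAT2 2.0.5, featureCounts 1.5.0-p3, CASAVA and mm10 appear in the submitters' processing notes. The sources used here do not give the annotation, the strand setting or how reads with several matches were counted. No exon of a member overlaps an exon of another gene in GENCODE M21, which also gave coordinates and lengths.

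Counts were scaled by the TMM method (edgeR 4.0.16, R 4.3.3), with factors of 0.967 for effector memory, 0.999 for central memory and 1.04 for naive. Ratios of CPM carry exact (Clopper-Pearson) 95% counting intervals, and a call needed 5 CPM, 2-fold and an interval excluding 1. The rule was tested on simulated data with counting noise only, which says nothing of the spread between animals. No p-value was computed, because each group has 1 library. Alternatives were other scalings (total counts, upper quartile, DESeq2 1.42.0), minimum levels, folds, log2(CPM + 1) and the longest transcript as gene length. Ratios and intervals were computed with SciPy 1.17.1 under Python 3.11.15.

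The members and lists were chosen with earlier results of these data known. The naming rule took all 8 members, up to 4 called genes with the largest log2 ratios per list and comparison, and the 3 genes nearest in pattern to each member. Some genes the rule takes are not given, and list genes named without a call fall outside it.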

Additional observations from a re-analysis of the deposited data

How the results depend on the processing

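Slc7a5 and Slc1a4 were called higher in effector memory under each other scaling of the libraries and no other member was. For effector memory against naive, transporters called higher numbered 1 at a minimum of 20 CPM (Slc7a5), 4 at 1.5-fold (with Slc3a2 and Slc1a5 added) and 1 at 3-fold (Slc1a4). For central memory against naive, 1 was called lower at a minimum of 1 CPM and 1 with no minimum (Slc1a4), and 1 higher at 1.5-fold (Slc1a5). For effector memory against central memory, 1 was called higher at 20 CPM (Slc7a5) and 2 lower at 1.5-fold (Slc38a1 and Slc7a6). These follow from the limits themselves. Over all genes, calls for effector memory against naive were 3823, and 6162 with no minimum, 5874 at 1.5-fold and 2196 at 3-fold. For central memory against naive they were 1591, and 2501 at 1 CPM, 830 at 20 CPM, 3560 with no minimum, 3194 at 1.5-fold and 900.0 at 3-fold. For effector memory against central memory they were 2752, and 4810 with no minimum, 4924 at 1.5-fold and 1373 at 3-fold. Other scalings moved the median log2 ratio of all genes by up to -0.10 for effector memory against naive and -0.12 for central memory against naive, so differences of that size have no fixed direction: Slc7a1 in the first (0.03, down to -0.08) and Slc3a2 (0.04, down to -0.08) and Slc7a6 (0.11, down to -0.01) in the second changed sign. On the log2(CPM + 1) scale Slc1a4 stood at 2.48 for effector memory against naive, -0.93 for central memory against naive and 3.41 for effector memory against central memory. No paired analysis was possible because each group has 1 library, and for the same reason no library could be left out.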

Other observations

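Of 11 mitochondrial carriers, 9 were at 5 CPM for effector memory against naive, with 2 called higher and 3 lower, where 22.3% of all genes were called higher and 15.6% lower. So few genes give no result about the carriers as a group. Sfxn1, the serine carrier of mitochondria, had 146 CPM in effector memory, 75.3 in central memory and 49.1 in naive, and Slc25a13, an aspartate and glutamate exchanger, had 15.8, 5.08 and 2.44 CPM. Slc25a22, a glutamate carrier, had 28.5, 61.5 and 78.1 CPM and was called lower in effector memory than in naive. None of 8 lysosomal carriers at 5 CPM was called in that comparison, among them Slc38a9, the arginine sensor of the lysosome, at 30.4, 46.3 and 48.7 CPM.

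Of 38 genes of amino acid sensing by mTORC1, 37 were at 5 CPM for effector memory against naive, with 4 called higher, 3 lower and 30 neither, both shares below those of all genes. The leucine sensor Sesn2 had 29.8 CPM in effector memory, 16.8 in central memory and 3.27 in naive. Rragd, a Rag GTPase, had 0.625, 0.419 and 6.76 CPM and was called lower in both memory libraries than in naive. It reached 5 CPM through naive alone, so its being highest there follows from that limit. Bcat1, the cytosolic branched-chain aminotransferase, which acts on leucine, had 42.3, 4.83 and 0.683 CPM, 61.9-fold higher in effector memory than in naive (interval 39.5 to 103). Bcat1 reached 5 CPM through effector memory alone, so its being highest there also follows from that limit. Odc1, the first enzyme of polyamine synthesis from ornithine, had 387, 135 and 109.8 CPM, 3.53-fold higher in effector memory than in naive (interval 3.39 to 3.67). Ahcy, which clears S-adenosylhomocysteine in the methionine cycle, had 295, 95.1 and 54.2 CPM, while the methionine synthase Mtr was called lower in effector memory, at 46.5 CPM against 111 in naive. For effector memory against naive, 3 of 8 genes of branched-chain amino acid breakdown were called higher and 1 lower. Of 10 genes of arginine and polyamine synthesis at 5 CPM, 2 were called higher and none lower. Of 6 genes of the methionine cycle, 1 was called higher and 1 lower. Over all genes, 22.3% were called higher and 15.6% lower, and so few genes give no result about these lists.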
